A study of Mus musculus with 16 samples.

Results

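The solute carrier (SLC) genes of naive T cells were examined by substrate class. Members were chosen by their mean level: genes named Slc with a family number and letter, or Slco, whose mean over the 16 libraries was at least 1 CPM (counts scaled to each library's total, in the usual CPM unit). Of 388 such names among the 24421 genes of the count table, 185 passed, 203 fell below that level and 55 of these had 0 counts in every library. The level itself is therefore given as a description only. Just inside the limit lay Slc22a23 (1.07 CPM), Slc7a3 (1.18) and Slc23a3 (1.20), and just outside lay Slc39a5 (0.996), Slc16a8 (0.994) and Slc22a13b-ps (0.953). Slc27a6, Slc43a1 and Slc9b2 passed only through the libraries of their highest group; over the other 12 libraries they averaged 0.858, 0.917 and 0.709 CPM. All 185 members also passed the filter on low counts and were tested. Of the members, 181 are carriers and 4 are not: the scaffold protein gene Slc9a3r1, the adaptor gene Slc4a1ap, Slc7a6os and the pseudogene Slc2a4rg-ps carry the family name for other reasons.

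RNA sequencing was done on naive CD4+ or CD8+ T cells sorted from total lymph node cells of C57BL/6 mice. Cells in all groups were CD25-, CD62Lhi and CD44lo, with no treatment or transgene named; the labels used here give no age. Within each lineage the third of cells with the lowest surface CD5 (CD5lo) and the third with the highest (CD5hi) were collected, which gave 4 groups: CD4 CD5lo, CD4 CD5hi, CD8 CD5lo and CD8 CD5hi, with 4 biological replicates each. By its title the study asks how CD5 relates to basal NF-kB signalling. CD5, a surface receptor, dampens signals from the antigen receptor, and naive T cells that bind self peptides more strongly carry more of it. The labels do not say that replicates came from separate animals, so p-values measure the spread between these samples only, which may be technical.

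Solute carriers are membrane proteins that move nutrients, ions, nucleosides and metabolites across the plasma membrane and the membranes of mitochondria, lysosomes and the Golgi apparatus. Some exchange one solute for another and others use the gradient of sodium, protons or the membrane potential. Resting T cells take up little, and activation raises carriers of glucose, glutamine and large neutral amino acids, among them Slc2a1, Slc1a5 and the pair Slc7a5 and Slc3a2, which form a heterodimer.

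Libraries held 71447252 to 93418385 counts, of which the members took 0.960 to 1.14%. The lineage gates were visible in the RNA: Cd8a averaged 1979 and 1604 CPM in CD8 CD5lo and CD8 CD5hi and 5.43 and 1.39 CPM in the CD4 groups. RNA of B cells was plainest in replicate 3 of both CD5lo groups and in replicate 4 of CD8 CD5hi: these held 134.8 to 319.5 CPM of Cd74, beside at most 16.5 CPM elsewhere. The same 3 libraries also held 3.37 to 10.7 CPM of the myeloid marker Lyz2, against at most 1.05 CPM elsewhere. The sum of all 14 listed myeloid markers did not set them apart in this way. It ran from 201 to 225 CPM in CD4 CD5lo, 172 to 201 in CD8 CD5lo and 181 to 233 in CD8 CD5hi. In CD4 CD5hi, which holds none of the 3 libraries, it ran from 210 to 233 CPM, with 1 marker at 0. Cd4 lay at 27.2 and 62.2 CPM in the CD8 libraries among them and at 0.415 to 2.51 CPM in the other CD8 libraries, and Cd8a lay at 11.4 CPM in CD4 CD5lo replicate 3 and at 0.692 to 5.49 CPM in the other CD4 libraries. The part of these other cells in the results was not tested. The 3 are called the B-marked libraries here, and calls lost when these 3 were left out are given beside each result. The summed level of 5 markers of activated or memory T cells (Cd44, Il2ra, Mki67, Top2a and Stmn1) moved with CD5: it ran from 39 to 44.2 CPM in CD4 CD5lo and 51.1 to 72.9 in CD4 CD5hi, and from 22.4 to 58.2 in CD8 CD5lo and 75.8 to 242 in CD8 CD5hi, with no marker at 0. Mki67 alone ran from 4.22 to 15.3 CPM in CD8 CD5lo and 19.6 to 90.9 in CD8 CD5hi. Cd44 overlapped in CD4 cells, at 5.55 to 8.39 CPM in CD5lo and 3.46 to 8.90 in CD5hi. In CD8 cells it lay at 2.70 to 7.35 and 7.61 to 20.5 CPM. Il2ra overlapped in CD8 cells, at 0.832 to 3.09 and 1.14 to 5.91 CPM. The part of these markers in the CD5 results was not tested. In sorted bulk samples, fewer cells that express a gene and less of its RNA per cell cannot be told apart.

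The largest class was that of mitochondrial carriers with 38 members, followed by amino acid carriers, metal carriers and carriers of inorganic ions and pH with 22 each. There were 16 carriers of organic ions, peptides, bile and fatty acids, 13 of nucleotide sugars, 12 of vitamins, choline, heme and acetyl-CoA, 11 of sugars and sugar phosphates, 6 of nucleosides and nucleobases, 5 of monocarboxylates and other carboxylates, 4 of neurotransmitters, taurine and creatine, and 2 of phosphate; 8 had another or no assigned substrate. Per kilobase of exon, the mitochondrial ADP/ATP carrier Slc25a5 stood highest (mean over the 4 groups, 245 CPM per kb), ahead of the scaffold gene Slc9a3r1 (147). Next on that scale came the glutamine carrier Slc1a5 (90.0), the choline transporter-like gene Slc44a2 (86.2), the sugar transporter Slc50a1 (78.7), the mitochondrial phosphate carrier Slc25a3 (71.8), the zinc transporter Slc39a7 (68.7), the phosphate transporter Slc20a1 (59.9) and Slc3a2 (56.8). At the other end the cystine-glutamate exchanger Slc7a11 had 0.107 and the sodium-proton exchanger Slc9b2 0.224 CPM per kb.

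Summed over a class, several levels differed between groups. The 22 carriers of inorganic ions and pH together reached 1645 to 1855 CPM in the CD8 CD5lo libraries, against 1090 to 1417 in CD8 CD5hi, 1156 to 1322 in CD4 CD5lo and 1159 to 1217 in CD4 CD5hi. The CD8 CD5lo range lay above all others, and 1 gene, Slc12a7, supplied 56.9% of the class's CPM there, 41.1% in CD8 CD5hi and 40.4 and 33.2% in CD4 CD5lo and CD5hi. Monocarboxylate carriers summed to 184 to 205 CPM in CD4 CD5lo and 75.5 to 118 in CD4 CD5hi, and to 221 to 240 in CD8 CD5lo and 122 to 179 in CD8 CD5hi. Of these sums Slc16a5 supplied 62.4 and 34.6% in the CD4 groups and 49.1 and 23.2% in the CD8 groups. Carriers of organic ions, peptides, bile and fatty acids summed to 261 to 287 and 246 to 265 CPM in the CD4 groups and to 327 to 364 and 302 to 349 CPM in the CD8 groups, with no overlap between lineages. Sums over the nucleotide sugar carriers lay between 492 and 547 CPM in all 16 libraries, with overlapping groups.

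With CD5, more members changed in CD8 than in CD4 cells. Between CD5lo and CD5hi, 6 members rose and 6 fell in CD4 cells, 6.49% of the 185. Over all 13554 genes tested the share was 4.08%. These calls include Slc9b2, Slc27a6 and Slc43a1, members only through their highest group, so nothing is read from that share. Of these genes only Slc9b2 was also called in CD8 cells. In CD8 cells 18 rose and 8 fell, 14.1% against a background of 9.46% (edgeR quasi-likelihood test, Benjamini-Hochberg adjusted p under 0.05 over all genes). By direction, the background was 2.68% higher and 1.4% lower in CD4 cells and 5.95% and 3.51% in CD8 cells. Members had to average at least 1 CPM, while the genes tested had only to pass the filter on low counts, which admits lower levels. Here and below, the shares of members and of all genes were not matched for level. The median log2 change of the members was -0.02 in CD4 and -0.04 in CD8 cells, beside -0.01 and 0.00 over all genes tested. Groups did not overlap for 26 members in CD4 cells and 37 in CD8 cells, where the backgrounds were 9.29 and 14.8% of genes.

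The pairing of samples by replicate number, checked over all genes, held in CD4 cells. With the replicate number as a block, 17 members rose and 11 fell there, all 12 of the calls above among them, against a background of 9.68% (5.69% higher and 3.99% lower). Those gained included Slc26a11, Slc22a17, Slc25a33, Slc8b1, Slc5a3, Slc29a1, Slc38a1, Slc14a1, Slc25a45 and Slc37a4 among the higher, and Slc6a19, Slc16a6, Slc26a10, Slc12a7 and Slc28a2 among the lower.

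Single libraries moved several of these counts. In CD4 cells the 6 lower calls became 3 without CD4 CD5lo replicate 1 or CD4 CD5hi replicate 4. In CD8 cells the 18 higher calls became 11 without CD8 CD5hi replicate 2. The 8 lower calls in CD8 cells became 5 without CD8 CD5lo replicate 1, 2 or 4 or CD8 CD5hi replicate 1 or 2. They became 15 without CD8 CD5hi replicate 4 and 13 without the 3 B-marked libraries, where the background was 4.04%.

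**Figure D1:**
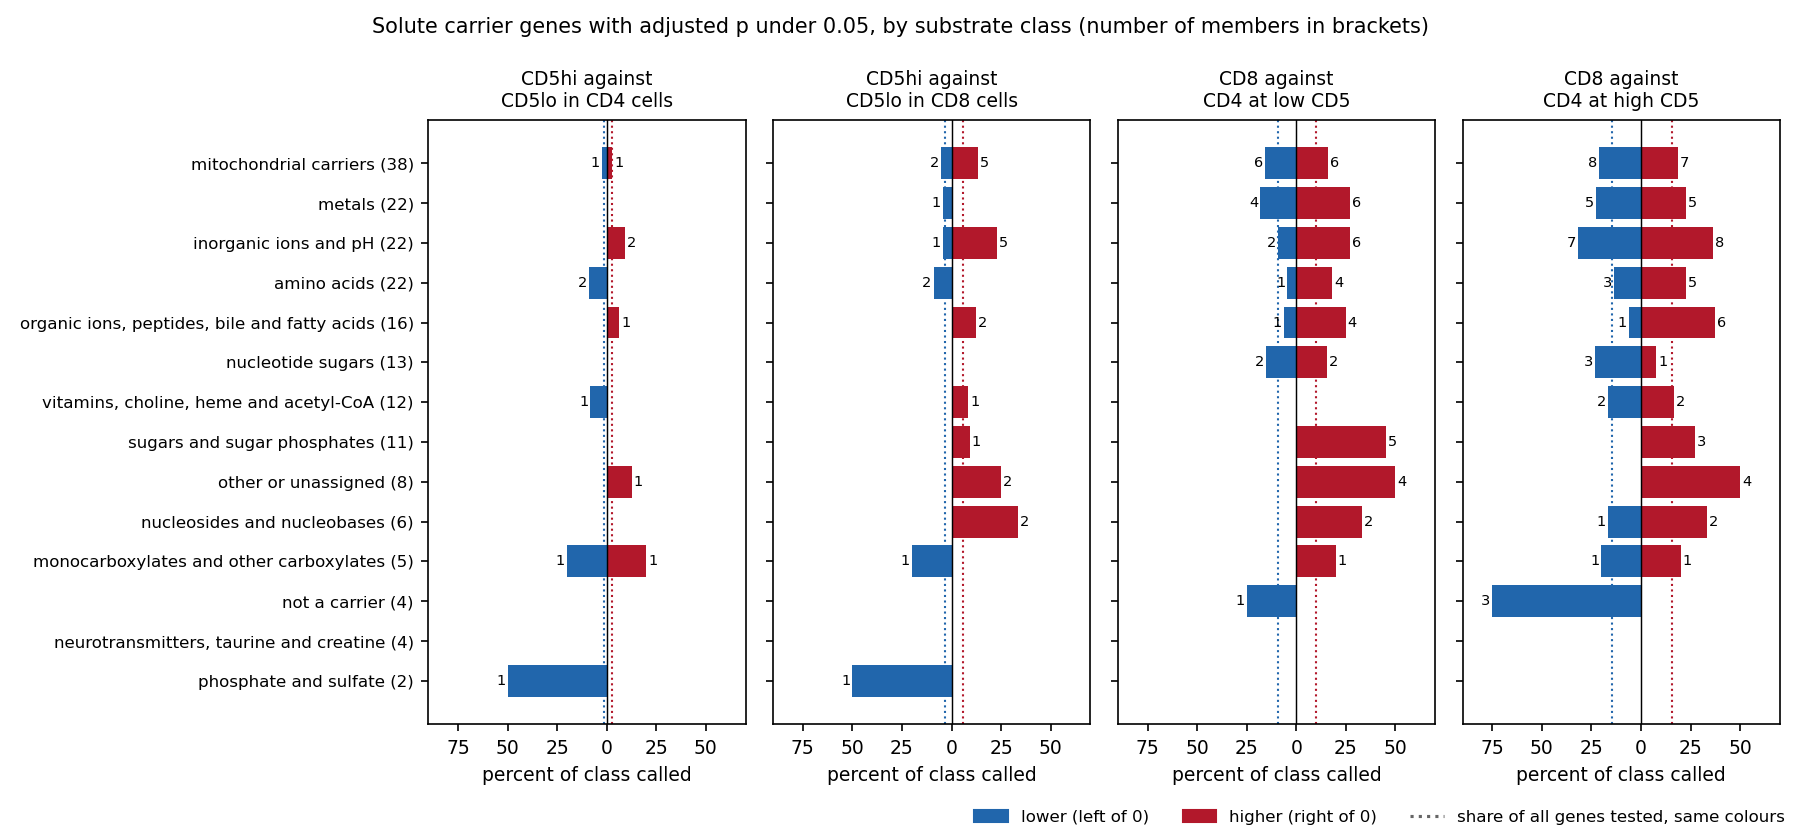
Percent of each substrate class with adjusted p under 0.05 in 4 comparisons (x axis, lower calls left of 0 and higher calls right of 0), with the number of genes at each bar and the class size in brackets. Dotted lines give the share over all genes tested; classes of few members reach high percentages with 1 gene, as phosphate carriers do with 1 of 2.

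By number, ion and mitochondrial carriers held the most calls in CD8 cells, but both are large classes. Their shares were 9.09 and 5.26% in CD4 cells, beside 4.08% of all genes, and 27.3 and 18.4% in CD8 cells, beside 9.46%. Amino acid carriers, at 9.09%, matched the ion carriers in CD4 cells. The ion carrier calls in both lineages include Slc9b2, and the amino acid carrier calls in CD4 cells include Slc43a1. Both genes were members only through their highest group, so nothing is read from these shares. Nucleoside and nucleobase carriers had a higher share in CD8 cells (33.3%). Of the 22 carriers of inorganic ions and pH, 2 rose in CD4 cells and 5 rose and 1 fell in CD8 cells. Of the 38 mitochondrial carriers, 1 rose and 1 fell in CD4 cells, and 5 rose and 2 fell in CD8 cells. Amino acid carriers had lower calls only in the fit without the block, 2 in each lineage. With it, Slc38a1 rose (edgeR adjusted p = 0.0032) and Slc6a19 fell in CD4 cells. In CD8 cells, where the pairing was uncertain, the block added Slc43a1, Slc38a1, Slc7a6 and Slc3a2 as higher. It also added Slc36a1, Slc38a6, Slc38a9 and Slc38a2 as lower. The 22 metal carriers had no call in CD4 cells and 1, lower, in CD8 cells, and at an unadjusted p under 0.05 they had 1 higher and 1 lower in CD4 cells. The 13 nucleotide sugar carriers had no edgeR call with CD5 in either lineage, and none at an unadjusted p under 0.05. The plot of calls by class shows these counts beside the share of all genes.

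Both lineages shared 7 of the calls. Slc4a8, Slc9b2, Slc25a24 and Slc35g1 were higher in CD5hi in both, and Slc16a5, Slc20a1 and Slc25a37 were lower in both; without the block, no member moved in opposite directions with a call in each. Over all genes, 1.54% were called higher in both lineages and 0.775% lower in both. Slc9b2 was a member only through its highest group. The CD4 and CD8 comparisons use different libraries. The scatter of both log2 changes shows the 7 along the diagonal.

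**Figure D2:**
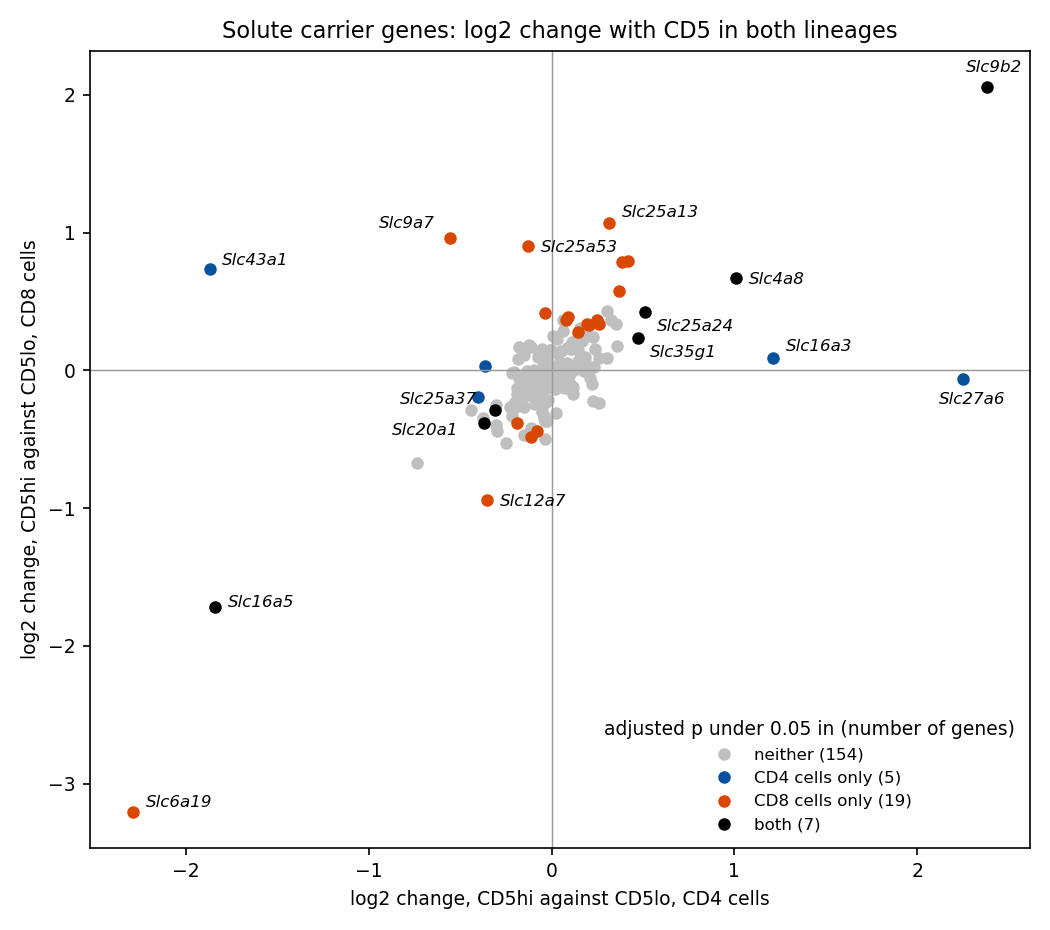
Log2 change from CD5lo to CD5hi in CD4 cells (x axis) and CD8 cells (y axis) for the 185 solute carrier genes, coloured by the lineage in which adjusted p was under 0.05. The 7 black points, called in both, run from Slc16a5 at -1.84 and -1.72 to Slc9b2 at 2.38 and 2.06.

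Slc4a8 and Slc9b2 are both plasma membrane carriers that act on pH, a sodium-driven chloride-bicarbonate exchanger and a sodium-proton exchanger. Slc4a8 (GRCm38, chr15:100761747-100823968, plus strand) measured 20.2, 20.8, 21.1 and 19.4 CPM in the CD4 CD5lo libraries and 40.8, 45.5, 43.5 and 34.5 in CD4 CD5hi, means of 20.4 ± 0.761 and 41.1 ± 4.75 CPM (SD, n = 4). In CD8 cells it measured 14.3, 14, 15.2 and 9.99 CPM in CD5lo and 19.7, 25, 21.4 and 19 in CD5hi. Every CD5hi library lay above every CD5lo library of its lineage. The log2 change was 1.01 ± 0.12 (SE) in CD4 cells (edgeR adjusted p = 8.4e-05) and 0.67 ± 0.12 in CD8 cells (0.00271), and the difference between these effects was not called (-0.34 ± 0.17, adjusted p = 0.719).

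Slc9b2 (chr3:135307700-135345387, plus strand) lay near the detection limit in CD5lo cells, at 0.440, 0.733, 0.627 and 0.345 CPM in CD4 and 0.291, 0.164, 0.543 and 0.237 CPM in CD8 cells. These were 14 to 54 counts per library. In CD5hi it measured 3.31, 2.91, 2.62 and 2.35 CPM in CD4 and 1.23, 1.35, 1.21 and 1.32 CPM in CD8 cells, again without overlap. The log2 changes were 2.38 ± 0.31 (edgeR adjusted p = 0.000142) and 2.06 ± 0.31 (0.000627), the widest rise of any member in each lineage. It is 1 of the 3 genes that were members only through their highest group, CD4 CD5hi.

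**Figure D3:**
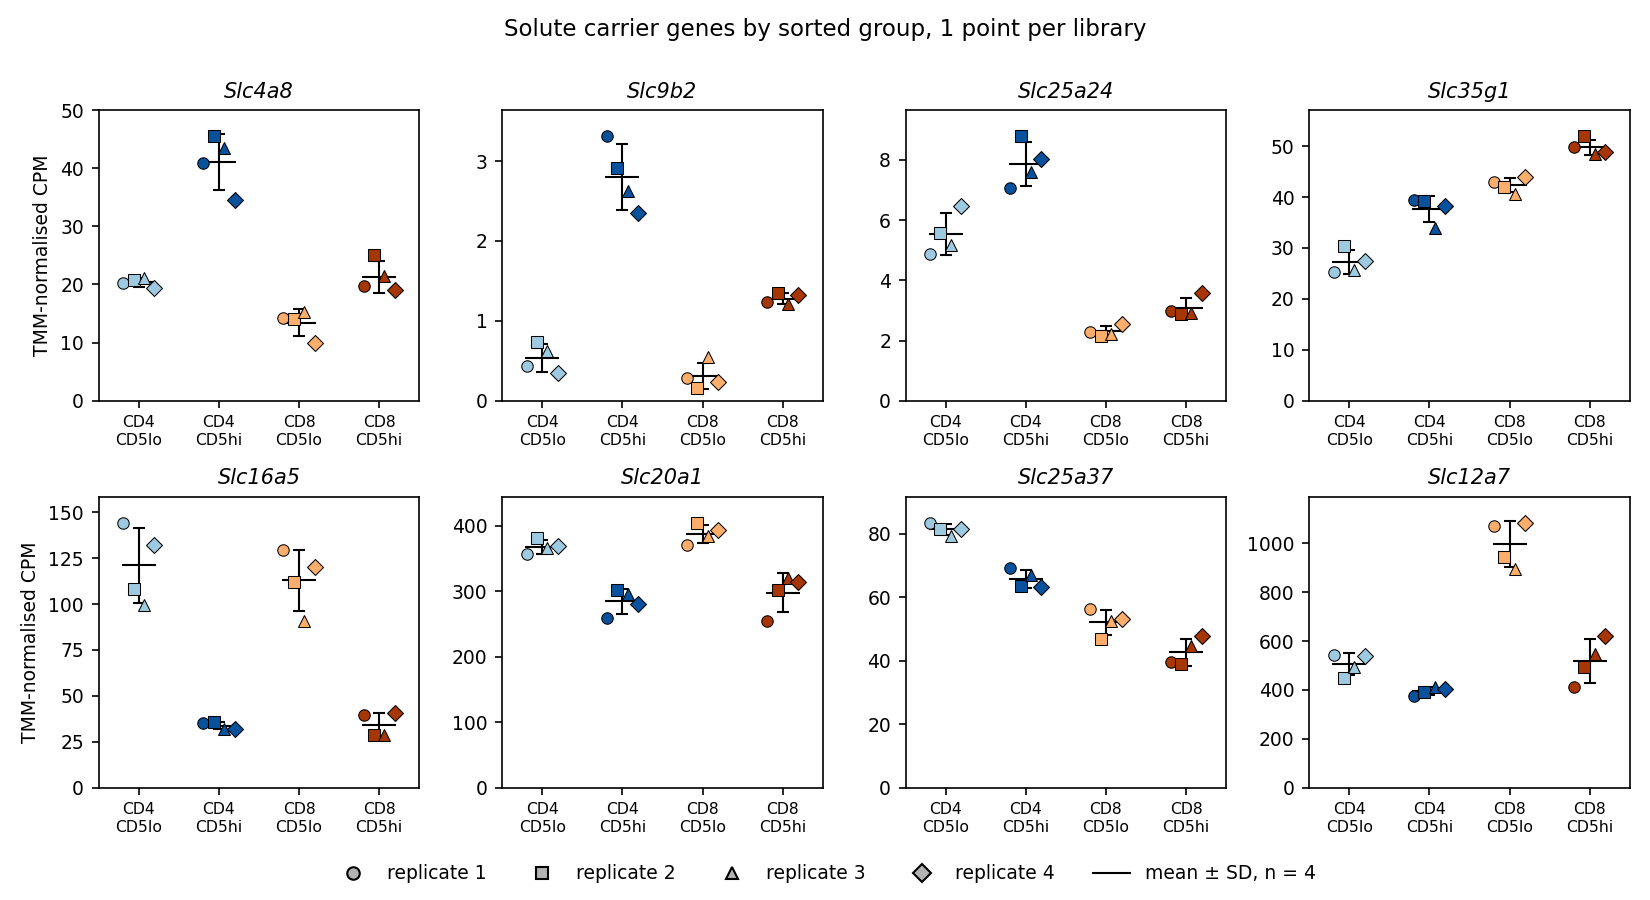
TMM-normalised CPM (y axis, from 0) of 8 solute carrier genes in the 4 sorted groups, 1 point per library with the marker giving the replicate, and the mean with SD as bars. Slc4a8, Slc9b2, Slc25a24 and Slc35g1 stood higher in CD5hi and Slc16a5, Slc20a1 and Slc25a37 lower in CD5hi of both lineages, while Slc12a7 stood highest in CD8 CD5lo, at 894 to 1081 CPM.

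Slc16a5, of the monocarboxylate transporter family, was the widest fall shared by both lineages. Its levels in CD4 cells were 144, 108, 99.6 and 132 CPM in CD5lo and 35.1, 36.1, 32.1 and 32.1 CPM in CD5hi, and in CD8 cells 129.5, 112, 90.7 and 119.9 CPM in CD5lo and 39.4, 28.5, 28.9 and 40.5 CPM in CD5hi. The lowest CD5lo library lay at 90.7 CPM and the highest CD5hi library at 40.5 CPM. On the log2 scale it fell by 1.84 ± 0.15 in CD4 (edgeR adjusted p = 1.54e-06) and by 1.72 ± 0.15 in CD8 cells (5.08e-06), and the lineages did not differ detectably in level at either CD5 state (adjusted p = 0.733 and 0.933). The gene lies at chr11:115462474-115474398.

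Slc20a1, a sodium-dependent phosphate importer, fell by a similar amount in both lineages. It measured 356, 382, 366 and 368 CPM in CD4 CD5lo and 259, 302, 296 and 281 in CD4 CD5hi (log2 change -0.37 ± 0.07, edgeR adjusted p = 0.00549). In CD8 cells it measured 370.3, 403, 384 and 393 CPM in CD5lo and 254, 302, 320.0 and 314 in CD5hi (-0.38 ± 0.07, 0.003). The groups did not overlap in either lineage. The other phosphate importer, Slc20a2, averaged 16.7 and 16.9 CPM in CD4 and 20.6 and 19.9 CPM in CD8 cells, with log2 changes of 0.02 ± 0.13 and -0.05 ± 0.13 that did not pass.

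Slc25a24 and Slc25a37 are carriers of the inner mitochondrial membrane, the first a calcium-regulated exchanger of ATP-Mg for phosphate and the second the iron importer mitoferrin. Slc25a24 measured 4.86, 5.57, 5.19 and 6.48 CPM in CD4 CD5lo and 7.05, 8.78, 7.60 and 8.02 in CD4 CD5hi, and 2.27, 2.17, 2.23 and 2.56 against 2.97, 2.89, 2.92 and 3.58 in CD8 cells. Its groups did not overlap, and its log2 changes were 0.51 ± 0.12 (edgeR adjusted p = 0.0237) and 0.42 ± 0.12 (0.0425). Slc25a37 measured 83.3, 81.6, 79.2 and 81.4 CPM in CD4 CD5lo and 69.2, 63.6, 67.1 and 63.1 in CD4 CD5hi, a fall by 0.31 ± 0.07 (0.0269). In CD8 cells it averaged 52.1 ± 3.93 and 42.7 ± 4.24 CPM, with 1 library of each group overlapping, and fell by 0.29 ± 0.08 (0.0235). These calls were near the threshold: leaving out 1 library at a time removed that of Slc25a24 in 5 of 16 fits for CD4 and 7 for CD8 cells (highest p 0.0839 without CD4 CD5hi replicate 2 and 0.1000 without CD8 CD5lo replicate 2). For Slc25a37 it was 6 and 5 fits (0.0885 without CD4 CD5hi replicate 2 and 0.102 without CD8 CD5lo replicate 1). Without the 3 B-marked libraries, Slc25a24 had an edgeR adjusted p of 0.0597 in CD4 and 0.152 in CD8 cells.

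Slc35g1, which has no substrate class here, measured 25.4, 30.4, 25.6 and 27.4 CPM in CD4 CD5lo and 39.5, 39.2, 33.9 and 38.3 in CD4 CD5hi. In CD8 cells it measured 42.9, 41.9, 40.6 and 44 CPM in CD5lo and 49.8, 51.9, 48.4 and 48.9 in CD5hi. All CD5hi libraries lay above their CD5lo counterparts, with log2 changes of 0.47 ± 0.07 (edgeR adjusted p = 0.000547) and 0.23 ± 0.07 (0.0479). The CD8 call was lost in 11 of 16 fits without 1 library (highest p 0.136, without CD8 CD5hi replicate 2) and without the 3 B-marked libraries (0.114).

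Since the series concerns NF-kB, the 250 bases upstream of the start of genes that moved in both lineages are shown for 2 that rose and 1 that fell (RefSeq, GRCm38.p6, plus strand). Capitals mark matches, on either strand, to a kB-type motif: GGG, any 5 bases, then CC.
Slc4a8, chr15:100761497-100761746: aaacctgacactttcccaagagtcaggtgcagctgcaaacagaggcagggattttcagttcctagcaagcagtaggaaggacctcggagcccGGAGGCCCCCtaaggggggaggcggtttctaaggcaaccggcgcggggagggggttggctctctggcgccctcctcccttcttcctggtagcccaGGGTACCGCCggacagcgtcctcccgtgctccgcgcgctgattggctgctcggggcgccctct
Slc9b2, chr3:135307450-135307699: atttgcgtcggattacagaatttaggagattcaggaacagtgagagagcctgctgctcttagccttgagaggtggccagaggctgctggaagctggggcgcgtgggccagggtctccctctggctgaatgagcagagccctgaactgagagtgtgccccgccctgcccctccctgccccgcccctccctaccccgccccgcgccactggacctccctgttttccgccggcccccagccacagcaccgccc
Slc20a1, chr2:129198523-129198772: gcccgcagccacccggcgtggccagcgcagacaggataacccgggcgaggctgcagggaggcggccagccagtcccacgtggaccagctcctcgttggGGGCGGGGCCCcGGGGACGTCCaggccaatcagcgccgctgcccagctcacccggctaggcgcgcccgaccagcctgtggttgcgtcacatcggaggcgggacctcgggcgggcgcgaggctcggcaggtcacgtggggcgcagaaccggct
The window of Slc4a8 held 2 matches and that of Slc20a1 3 matches, of which some overlap, while that of Slc9b2 held none. The windows of Slc25a24 and Slc35g1 held 1 and 0. No window was available for Slc16a5 and Slc25a37, the other genes that fell in both lineages. Of 120 members with a RefSeq window within 500 bases of the annotated start, 82 (68.3%) held at least 1 match, beside 45.8% of all 32851 windows of this length in the table. E-boxes, CACGTG, were in 15 member windows (12.5%, beside 6.02% of all), with 2 in that of Slc20a1. Matches to TGANTCA were in 9 (7.5%, beside 6.75%) and to TGACGTCA in 2 (1.67%, beside 1.55%). These are letter matches in a window, not bound sites, and the base composition of the windows was not matched.

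Other members were called with CD5 in CD4 cells only. Higher in CD5hi was Slc16a3, the lactate exporter of highly glycolytic cells, at 1.54, 1.32, 2.47 and 1.44 CPM in CD5lo and 3.30, 3.39, 5.80 and 3.22 in CD5hi. Replicate 3 was the highest in both groups, and the groups did not overlap (log2 change 1.21 ± 0.26, edgeR adjusted p = 0.0108). In CD8 cells Slc16a3 averaged 1.98 ± 0.41 and 2.11 ± 0.47 CPM (0.09 ± 0.25, 0.879). The difference between the lineages' effects was called with the replicate block only (-1.12 ± 0.36 and 0.295 without it). Slc16a10, an exporter of aromatic amino acids, fell from 20.4 ± 1.73 to 15.9 ± 0.972 CPM in CD4 cells (-0.36 ± 0.09, 0.0269), and the lysosomal carrier Slc46a3 fell from 11.1 ± 0.540 to 8.41 ± 0.303 CPM (-0.40 ± 0.10, 0.0365). In CD8 cells their log2 changes were 0.03 ± 0.09 and -0.19 ± 0.10. The differences between lineages did not pass without the block (0.282 and 0.883). The Slc16a10 call was lost in 4 of 16 fits without 1 library (CD4 CD5lo replicate 1 or 2 or CD4 CD5hi replicate 1 or 4, highest p 0.107). That of Slc46a3 was lost in 9 (highest 0.104, without CD4 CD5hi replicate 3) and without the 3 B-marked libraries (0.0739).

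The effect of CD5 differed between lineages for 2 members, 1.08% of them beside 0.31% of all genes (0.177% higher in CD8 and 0.133% lower), and both were almost absent from CD4 cells. Both belong to the 3 genes that were members only through their highest group, so nothing is read from that share. Slc43a1, a facilitated transporter of large neutral amino acids, had 8, 12, 20 and 10 counts in the CD4 CD5lo libraries and 2, 6, 4 and 2 in CD4 CD5hi, on average 0.164 and 0.0433 CPM. In CD8 cells it measured 2.56, 2.90, 2.72 and 1.95 CPM in CD5lo and 4.04, 5.36, 3.92 and 3.51 in CD5hi. The fit gave a fall by 1.87 ± 0.37 in CD4 (edgeR adjusted p = 0.00636), a rise of 0.73 ± 0.25 in CD8 cells that did not pass (0.0848), and a difference of 2.60 ± 0.45 (0.0229). Slc27a6, of the fatty acid transport protein family, went the other way: it had 2, 4, 4 and 2 counts in CD4 CD5lo and 8, 18, 12 and 24 in CD4 CD5hi, a fitted rise of 2.25 ± 0.36 (0.00103). In CD8 cells it averaged 2.44 ± 0.188 and 2.34 ± 0.409 CPM (-0.06 ± 0.25, 0.925), and the difference between effects was -2.31 ± 0.44 (0.0391). A count of 3 corresponds to 0.0390 CPM in CD4 CD5lo and 0.0375 CPM in CD4 CD5hi, so the fitted values for CD4 cells depend on the prior count.

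Beside these levels stand those of CD8 cell markers in the same libraries. In CD4 CD5lo, Slc43a1 reached 6.47% of its CD8 CD5lo level and Slc27a6 1.62%, where Cd8a reached 0.275% and Cd8b1 2.12%. In CD4 CD5hi the shares were 1.03% and 8.26%, with Cd8a at 0.0867% and Cd8b1 at 0.831%. The part of CD8 cells in these counts was not tested. Leaving out 1 library removed the difference for Slc43a1 in 4 of 16 fits (CD4 CD5hi replicate 1 or 4, CD8 CD5lo replicate 2 or CD8 CD5hi replicate 2, highest p 0.0627) and for Slc27a6 in 13 (highest 0.0916, without CD4 CD5lo replicate 1). Among members with at least 5 CPM, none was called for this difference in the edgeR fit without the block. With the block, Slc9a7, Slc25a53 and Slc16a10 were gained as higher and Slc16a3, Slc12a7 and Slc5a3 as lower (background 1.51 and 1.28%). The pairing between the CD8 groups, which that fit also uses, was uncertain.

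In CD8 cells, the widest change with CD5 was in Slc6a19, the sodium-dependent carrier of neutral amino acids of gut and kidney epithelium. It measured 46.5, 33.4, 27.9 and 38 CPM in CD8 CD5lo (chr13:73679745-73704865) and 4.73, 2.22, 3.58 and 5.32 CPM in CD8 CD5hi. The lowest CD5lo library stood far above the highest CD5hi library, and the log2 change was -3.20 ± 0.33 (edgeR adjusted p = 2.66e-05). In CD4 cells the gene had 25, 5, 9 and 19 counts in CD5lo and 2, 6, 0 and 4 in CD5hi. The fitted fall there, by 2.29 ± 0.65, did not pass (0.0649) but did with the replicate block (0.019). Its mean in CD4 CD5hi, 0.0368 CPM, lay below the level of 3 counts, and the fitted value depends on the prior count. Its CD4 levels were 0.515% of the CD8 level in CD5lo, beside 0.275% for Cd8a and 2.12% for Cd8b1, and 0.928% in CD5hi; the part of CD8 cells in them was not tested.

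Of the other amino acid carriers, Slc43a2, the sister gene of Slc43a1, fell in CD8 cells from 126 ± 9.68 to 90.1 ± 15.6 CPM. Its libraries held 114, 137, 127 and 127 CPM in CD5lo and 67.2, 94.9, 103 and 95.5 in CD5hi, without overlap (-0.49 ± 0.12, edgeR adjusted p = 0.0166, and 0.0653 without CD8 CD5lo replicate 2). In CD4 cells the change was -0.11 ± 0.12 (0.881). Slc38a1, a sodium-coupled glutamine carrier, had log2 changes of 0.23 ± 0.10 in CD4 and 0.24 ± 0.10 in CD8 cells. The CD4 change did not pass without the replicate block (0.378) and did with it (0.0032). The CD8 change was also called with the block only, and there the pairing was uncertain.

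The ion carrier with the most RNA of its class was also among those that fell. Slc12a7, a potassium-chloride cotransporter that lets cells lose salt and water (chr13:73733094-73816754), measured 1071, 943, 894 and 1081 CPM in CD8 CD5lo and 410.4, 495, 549 and 622 CPM in CD8 CD5hi. The groups were far apart, and the log2 change was -0.94 ± 0.11 (edgeR adjusted p = 6.84e-05). In CD4 cells it measured 543, 449, 493 and 541 CPM in CD5lo and 374, 393, 414 and 405 in CD5hi. The fall there, by 0.35 ± 0.11, did not pass (0.0897) but did with the replicate block (0.027). The difference between lineages (-0.59 ± 0.15, 0.133) was likewise called with the block only.

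Also higher with CD5 in CD8 cells were 3 ion carriers beside Slc4a8 and Slc9b2. Slc26a11, an anion carrier of the sulfate family, rose from 33.2 ± 4.40 to 49.4 ± 4.87 CPM (0.57 ± 0.11, edgeR adjusted p = 0.00264); in CD4 cells it went from 31.2 ± 2.19 to 40.3 ± 4.16 CPM (0.37 ± 0.11, 0.0675; 0.00049 with the block). Slc9a7, a sodium-proton exchanger of the Golgi, measured 1.60, 1.42, 2.74 and 1.53 CPM in CD8 CD5lo and 3.49, 3.12, 3.17 and 4.38 in CD8 CD5hi (0.96 ± 0.22, 0.0121). In CD4 cells Slc9a7 went the other way without a call, from 1.26 ± 0.312 to 0.857 ± 0.0631 CPM (-0.56 ± 0.23, 0.29), and the difference between the lineages lay just above the threshold (1.52 ± 0.32, 0.0566). Slc8b1, the mitochondrial sodium-calcium exchanger, which lies outside the naming rule and was chosen after its value was seen, rose from 11.7 ± 0.199 to 14.8 ± 1.86 CPM (0.34 ± 0.09, 0.0283; 0.064 without the 3 B-marked libraries).

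Among mitochondrial carriers, Slc25a13 and Slc25a53 had the widest rises in CD8 cells. Slc25a13, the aspartate-glutamate exchanger citrin, measured 2.97, 3.61, 2.58 and 2.61 CPM in CD5lo and 7.40, 6.67, 5.48 and 5.11 in CD5hi (1.07 ± 0.18, edgeR adjusted p = 0.00167). Slc25a53, whose substrate is not defined, measured 10.3, 7.37, 7.46 and 7.57 CPM in CD5lo and 19.3, 14.8, 14.1 and 13.2 in CD5hi (0.91 ± 0.15, 0.00102). Neither overlapped between groups. In CD4 cells they averaged 1.75 and 2.18 CPM and 2.23 and 2.04 CPM, and the difference between lineages was 0.75 ± 0.26 (0.362) for Slc25a13 and 1.03 ± 0.21 (0.0505) for Slc25a53.

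The more abundant mitochondrial carriers moved less. The ADP/ATP carrier Slc25a5 rose from 381 ± 31 to 493 ± 68.3 CPM in CD8 cells (0.37 ± 0.11, edgeR adjusted p = 0.0437) and the glutathione importer Slc25a39 from 38.5 ± 3.81 to 50.4 ± 5.01 CPM (0.39 ± 0.11, 0.0285). Slc25a23, the paralog of Slc25a24, fell from 53.2 ± 4.68 to 40.9 ± 5.29 CPM (-0.38 ± 0.11, 0.0497). Calls of Slc25a5, Slc25a39 and Slc25a23 were lost in 7, 4 and 13 of 16 fits without 1 library, with highest p of 0.127 without CD8 CD5hi replicate 1, 0.103 without CD8 CD5hi replicate 2 and 0.186 without CD8 CD5lo replicate 4. Slc25a23 was also lost without the 3 B-marked libraries (0.0529). The phosphate carrier Slc25a3 (387 ± 27.8 and 426 ± 34.8 CPM) and the other ADP/ATP carrier Slc25a4 (144 ± 2.64 and 162 ± 21.7 CPM) did not pass in CD8 cells (0.319 and 0.242).

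Nucleoside and nucleobase carriers rose in CD8 cells in 2 of 6 cases. Slc29a1, the equilibrative nucleoside transporter, measured 42.8, 43.3, 45.2 and 49.3 CPM in CD5lo and 60.4, 60.6, 56.0 and 55.9 in CD5hi, without overlap (0.37 ± 0.07, edgeR adjusted p = 0.00298). In CD4 cells it went from 37.4 ± 1.34 to 44.4 ± 3.32 CPM (0.25 ± 0.07, 0.0606; 0.022 with the block). Slc43a3, a purine nucleobase carrier, measured 4.68, 4.77, 4.41 and 3.88 CPM in CD8 CD5lo and 6.85, 10.7, 8.58 and 4.45 in CD8 CD5hi; replicate 4 of CD5hi lay within the CD5lo range (0.79 ± 0.19, 0.0149). That call was lost without CD8 CD5hi replicate 2 (0.0655) or CD8 CD5lo replicate 4. The concentrative nucleoside transporter Slc28a2, with the most RNA per kb of this class, averaged 165 ± 27 and 139 ± 27.6 CPM in CD8 and 153 ± 22.7 and 123 ± 15.8 CPM in CD4 cells, where the fall passed with the block alone (-0.31 ± 0.15, 0.444; 0.012 with it).

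The remaining calls in CD8 cells were in other classes. Higher in CD5hi were the urea transporter Slc14a1 (63.2 ± 2.94 to 79.8 ± 4.27 CPM, 0.34 ± 0.06, edgeR adjusted p = 0.002) and the sugar phosphate exchanger Slc37a2 (5.95 ± 0.252 to 7.96 ± 0.542 CPM, 0.42 ± 0.09, 0.00997). So were Slc22a15, of the organic ion family (1.84 ± 0.508 to 3.18 ± 0.507 CPM, 0.79 ± 0.19, 0.016; 0.0521 without CD8 CD5lo replicate 4), and Slc10a3, of the bile acid carrier family (0.28 ± 0.07, 0.0178). The Slc10a3 value is uncertain, since Ubl4a covers 12.8% of its exonic bases; the call did not hold without CD8 CD5lo replicate 3 (0.0581) or without the 3 B-marked libraries (0.108). The reduced folate carrier Slc19a1, also chosen after its value was seen, rose from 30.8 ± 1.52 to 38.8 ± 4.36 CPM (0.33 ± 0.09, 0.022; 0.094 without the B-marked libraries). Lower in CD5hi was the zinc transporter Slc39a13 (14.3 ± 2.01 to 10.6 ± 2.13 CPM, -0.44 ± 0.13, 0.0464), a call lost in 13 of 16 fits without 1 library (highest 0.189, without CD8 CD5lo replicate 4). For these 6 genes the difference between the CD5 effects in the lineages did not pass.

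Between the lineages, more members differed, and more of them were higher in CD8 cells. At low CD5, 40 members were higher in CD8 than in CD4 cells and 17 lower, 30.8% of the members beside 19.5% of all genes (10% higher and 9.44% lower). At high CD5, 44 were higher and 34 lower, 42.2% beside 30.3% (15.6% and 14.8%). Of these, 34 members were higher in CD8 cells at both CD5 levels and 15 lower at both, with none in opposite directions in the fit without the block, and 99 were called at neither. Slc43a1 and Slc27a6, members only through their highest group, were among those higher at both levels. Slc9b2, another such member, was among those lower at high CD5. The median log2 difference was 0.03 and 0.05 for the members and 0.00 and 0.01 for all genes tested. Groups did not overlap for 61 and 74 members, beside 22.3 and 28.9% of all genes. In these comparisons too, all genes tested include genes of lower level than the members. With the replicate block, which held for these comparisons too, 52 members were higher and 32 lower at low CD5 (background 32.1%, 15.7% higher and 16.3% lower) and 62 higher and 54 lower at high CD5 (46.7%, 23.4% and 23.3%). The summed level of 7 natural killer cell markers, none at 0, also went with lineage: 36 to 49.7 CPM in CD4 CD5lo, 19.9 to 29.9 in CD4 CD5hi, 460.4 to 608 in CD8 CD5lo and 585 to 802 in CD8 CD5hi. Its part in these differences was not tested. Without the block, sugar carriers were called higher in CD8 cells only, 5 of 11 at low and 3 of 11 at high CD5. With the block Slc5a3, the sodium-coupled carrier of myo-inositol, was called in opposite directions: it was higher in CD8 cells at low CD5 (0.27 ± 0.10 and edgeR adjusted p = 0.0773 without the block, 0.0075 with it) and lower at high CD5 (-0.23 ± 0.10, 0.0966 and 0.015). Its means were 11.7 ± 1.22 and 13.9 ± 1.55 CPM in CD4 CD5lo and CD5hi and 14 ± 1.14 and 11.9 ± 0.749 CPM in CD8 CD5lo and CD5hi.

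**Figure D4:**
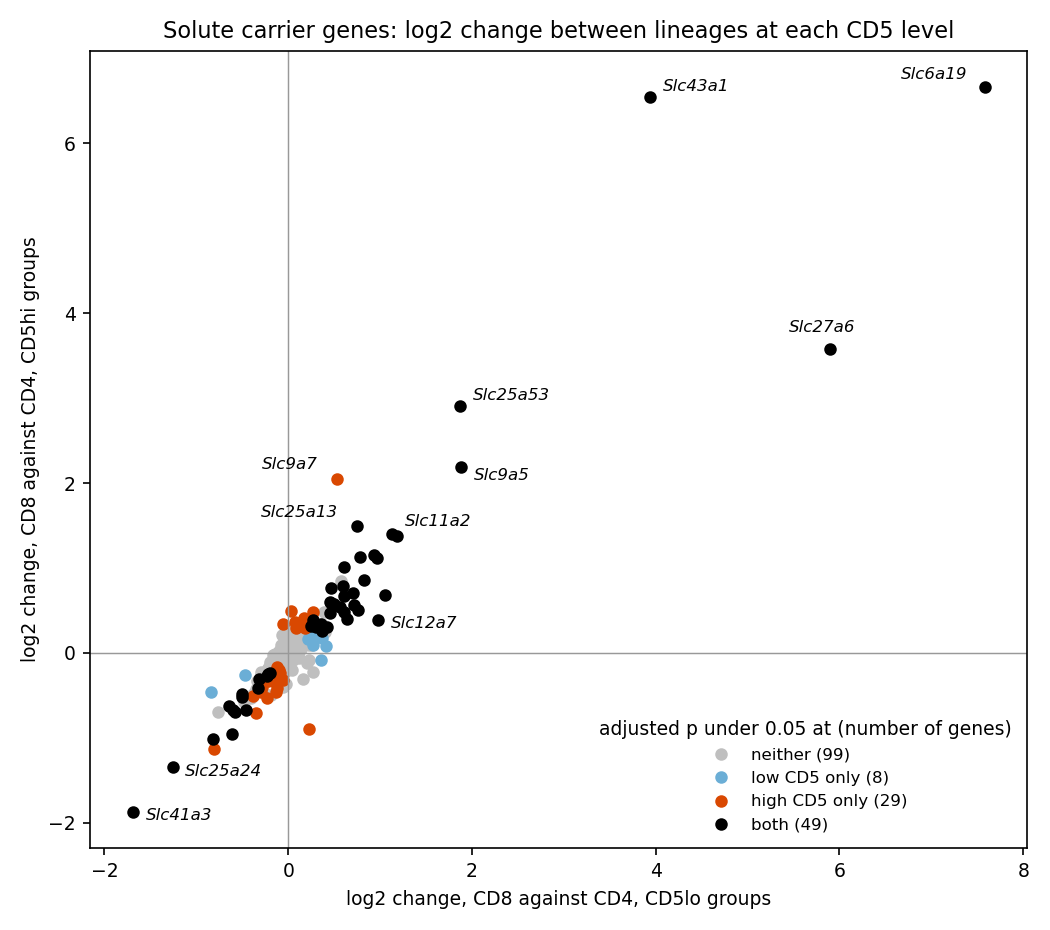
Log2 difference between CD8 and CD4 cells at low CD5 (x axis) and at high CD5 (y axis) for the 185 solute carrier genes, coloured by the CD5 level at which adjusted p was under 0.05. Slc6a19 lies at 7.58 and 6.66 and Slc41a3 at -1.69 and -1.87, and no gene was called in opposite directions in the fit without the replicate block.

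Slc6a19 (7.58 and 6.66), Slc43a1 (3.94 and 6.54) and Slc27a6 (5.90 and 3.58) were nearly absent from CD4 cells. Among the other members with at least 5 CPM, wide differences lay in several classes, among them carriers of metals and of mitochondria. Slc25a53 was higher in CD8 cells by 1.87 ± 0.15 at low and 2.91 ± 0.16 at high CD5 (edgeR adjusted p = 1.75e-07 and 1.38e-09). The iron and manganese importer Slc11a2 measured 39.6, 40.1, 37.3 and 38.8 CPM in CD4 CD5lo and 88.4, 89.9, 78.9 and 84.7 in CD8 CD5lo, and 32.8, 35.4, 35.1 and 33.9 against 83.2, 94.7, 98 and 85.8 at high CD5. Every CD8 library was at least at 78.9 CPM and every CD4 library at most at 40.1 CPM (1.13 ± 0.07, 4.4e-09, and 1.4 ± 0.07, 3.39e-10). Slc35f2, of no assigned class, was higher by 1.18 ± 0.09 and 1.38 ± 0.09, and the intestinal-type zinc importer Slc39a4 by 0.93 ± 0.13 and 1.15 ± 0.13. Slc25a4, the second ADP/ATP carrier, averaged 83.4 and 73.7 CPM in the CD4 groups and 144 and 162 CPM in the CD8 groups (0.79 ± 0.08 and 1.13 ± 0.08). Some members with lower levels differed as widely. The sodium-proton exchanger Slc9a5, chosen after its values were seen, averaged 1.42 and 1.48 CPM in the CD4 groups and 5.26 and 6.77 CPM in the CD8 groups (1.89 ± 0.22, 9.53e-06, and 2.19 ± 0.22, 1.67e-06, by edgeR). At high CD5, Slc9a7 was higher in CD8 cells by 2.05 ± 0.23 (edgeR adjusted p = 5.28e-06) and Slc25a13 by 1.5 ± 0.19 (1.38e-05).

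Lower in CD8 cells was first the magnesium transporter Slc41a3. It measured 14.8, 13.6, 13.6 and 16.0 CPM in CD4 CD5lo and 3.76, 5.28, 4.02 and 4.89 in CD8 CD5lo, and 17.5, 18.5, 18 and 20.3 against 3.20, 5.92, 5.48 and 5.72 at high CD5 (-1.69 ± 0.16, edgeR adjusted p = 1.15e-06, and -1.87 ± 0.16, 2.96e-07). The magnesium transporter Slc41a1, with more RNA per kb, differed by 0.04 ± 0.07 and -0.20 ± 0.07 (0.823 and 0.0511; 0.0028 with the block at high CD5). Slc25a24 was lower in CD8 cells by 1.26 ± 0.12 and 1.35 ± 0.12, its paralog Slc25a23 by 0.82 ± 0.12 and 1.01 ± 0.12, and Slc25a37 by 0.64 ± 0.08 and 0.62 ± 0.08 on the log2 scale. Slc4a8 was lower by 0.61 ± 0.12 and 0.95 ± 0.12.

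Ion, amino acid and organic anion carriers differed in both directions. Slc12a7 was higher in CD8 cells by 0.98 ± 0.11 at low CD5 (edgeR adjusted p = 4.61e-06) and by 0.39 ± 0.11 at high CD5 (0.0113). Among amino acid carriers, Slc43a2 was higher in CD8 cells (1.05 ± 0.12 and 0.68 ± 0.12) and Slc38a1 too (0.46 ± 0.10 and 0.47 ± 0.10), while Slc38a6 was lower (-0.60 ± 0.11 and -0.67 ± 0.11). The proton-coupled lysosomal carrier Slc36a1 was lower at high CD5 (-0.53 ± 0.12, 0.00312). Of the organic anion carriers, Slco3a1 was higher by 0.61 ± 0.07 and 0.67 ± 0.07. Slc16a6, of the monocarboxylate family, was higher by 0.97 ± 0.15 and 1.12 ± 0.15, a value left uncertain by Amz2, which covers 21.5% of its exonic bases. Slc26a10, of which B4galnt1 covers 17.8%, was higher by 0.83 ± 0.28 (0.0457) and 0.86 ± 0.28 (0.0274); these calls were lost in 10 and 6 of 16 fits without 1 library (highest p 0.132 without CD4 CD5lo replicate 1 and 0.0793 without CD4 CD5hi replicate 1). They were also lost without the 3 B-marked libraries (0.0992 and 0.0518).

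Without the block, the nutrient carriers Slc2a1, Slc7a5, Slc3a2, Slc1a5, Slc38a2 and Slc16a1 did not pass in either CD5 comparison. The lactate exporter Slc16a3, by contrast, passed in CD4 cells, as given above. Several of the carriers that did not pass varied mainly with the replicate number in the labels. The glucose carrier Slc2a1 measured 57.1, 70.2, 98.3 and 67.3 CPM in CD4 CD5lo, 48.8, 69.1, 89.4 and 65.7 in CD4 CD5hi, 48.3, 74.4, 87.0 and 70 in CD8 CD5lo, and 49.1, 71.3, 84.4 and 71.2 in CD8 CD5hi. In all 4 groups replicate 1 was the lowest and replicate 3 the highest. Replicate number took 94.4% of the variance of its log2 CPM (pseudocount 0.5 CPM) and group 1.72%. For Slc7a5 it took 86.6%, for the glutamine carrier Slc38a2 84.8%, for Slc3a2 80.4%, for the monocarboxylate carrier Slc16a1 56.6%, and for Slc35e1 95.9%. Slc7a5 measured 48.1 to 58.4 CPM in the libraries of replicate 1 and 69.1 to 96.6 CPM in all others. Slc1a5 went the other way, at 400.0 to 474 CPM in replicate 1 and 289 to 372 CPM in replicate 3.

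**Figure D5:**
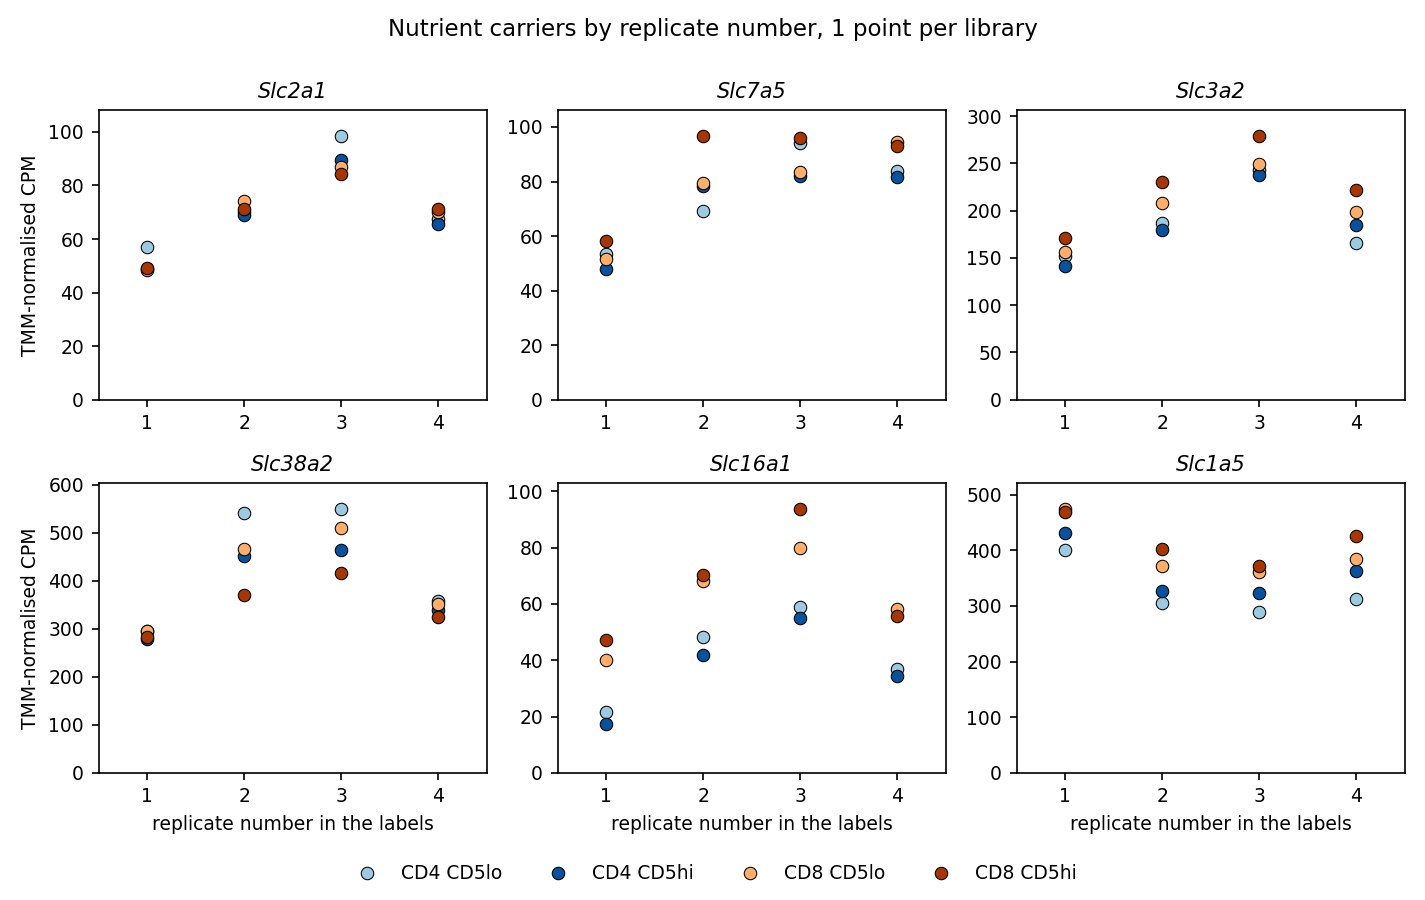
TMM-normalised CPM (y axis, from 0) of 6 nutrient carriers against the replicate number in the labels (x axis), 1 point per library coloured by sorted group. Slc2a1 lay at 48.3 to 57.1 CPM in replicate 1 and at 84.4 to 98.3 CPM in replicate 3 of all 4 groups, and Slc1a5 was highest in replicate 1.

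The labels do not say what a replicate number stands for. Over all members it took at least 50% of the variance in 41 (22.2%), near the 25.6% of all genes tested, so it is not particular to solute carriers; the medians were 23.9% for replicate number and 54.5% for group, beside 28.8 and 40.3% over all genes. The stress-response gene Sesn2 (93.9%) and the homing receptor gene Ccr7 (80.4%) had the same order, lowest in replicate 1 and highest in replicate 3 in all 4 groups. The CD5 changes of these carriers were small beside that spread: Slc2a1 -0.10 ± 0.22 in CD4 and -0.02 ± 0.22 in CD8 cells, Slc7a5 -0.05 ± 0.22 and 0.16 ± 0.22, Slc3a2 -0.01 ± 0.19 and 0.15 ± 0.19, Slc1a5 0.15 ± 0.12 and 0.07 ± 0.12, and Slc16a1 -0.15 ± 0.34 and 0.11 ± 0.34 on the log2 scale. In CD4 cells, where the block applies, none of these 5 passed with it either. In CD8 cells, where the pairing was uncertain, the block called Slc3a2 and Slc38a1 higher and Slc38a2 lower. The other glucose carrier, Slc2a3, was higher in CD8 cells (62.8 ± 5.04 and 69.2 ± 4.57 CPM in CD4, 96.0 ± 6.82 and 96.6 ± 3.99 CPM in CD8; 0.61 ± 0.07, edgeR adjusted p = 1.24e-05, and 0.48 ± 0.07, 0.000106), with no call for CD5.

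With the block, differences between the lineages in these carriers passed that did not without it. Slc16a1 averaged 41.3 ± 16.0 and 37.2 ± 15.6 CPM in the CD4 groups and 61.6 ± 16.9 and 66.7 ± 20.3 CPM in the CD8 groups, a difference of 0.58 ± 0.34 and 0.84 ± 0.34 (edgeR adjusted p = 0.294 and 0.0732; 0.00025 and 5.7e-06 with the block). Within each replicate number both CD8 libraries lay above both CD4 libraries. Slc1a5 was higher in CD8 cells by 0.29 ± 0.12 and 0.21 ± 0.12 (0.124 and 0.215; 0.00014 and 0.0011 with the block). At high CD5, Slc3a2 (0.28 ± 0.19, 0.288; 0.00034) and Slc7a5 (0.25 ± 0.22, 0.447; 0.0076) were likewise called with the block only.

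Of 36 listed carriers and partners without an Slc name, 30 were tested. With CD5, 1 rose in CD4 cells (3.33% of them, beside 4.08% of all genes) and 4 rose in CD8 cells (13.3 beside 9.46%), and none fell. Atp1b3, a subunit of the sodium pump on whose gradient many solute carriers depend, rose in both lineages (0.26, edgeR adjusted p = 0.013, and 0.21, 0.032). In CD8 cells so did the mitochondrial serine carrier Sfxn1 (0.57, 0.0018), the lysophospholipid carrier Mfsd2a (0.98, 0.042) and Mfsd10 (0.31, 0.011). Between lineages, 1 was higher and 3 lower in CD8 cells at low CD5, and 6 higher and 4 lower at high CD5 (13.3 and 33.3%, beside 19.5 and 30.3%). Of 25 listed regulators of nutrient transport, 22 were tested. Stk39, a kinase that acts on cation-chloride cotransporters such as Slc12a7, rose in CD4 (0.38, 0.017) and CD8 cells (0.31, 0.033), and the ubiquitin ligase gene Nedd4l fell in both (-0.41, 0.0038, and -0.35, 0.0082). Txnip, which restrains glucose uptake, fell in CD8 cells (-0.64, 0.0033), and these were all the calls of that list with CD5 (9.09% of the 22 in CD4 and 13.6% in CD8 cells). Between lineages, 1 regulator was higher and 3 lower in CD8 cells at low CD5 (18.2%), and 3 were higher and 6 lower at high CD5 (40.9%). Myc was higher in CD8 cells at both CD5 levels (0.52 and 0.58), and Arrdc3 (0.41) and Mycn (2.75, from means of 0.0929 and 0.638 CPM) at high CD5. Lower at both levels were Stk39 (-0.81 and -0.88), Atf4 (-0.44 and -0.32) and Sesn1 (-0.18 and -0.24), and lower at high CD5 were Txnip (-0.54), Nfe2l2 (-0.31) and Aco1 (-0.21).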

How the data were processed

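RNA from 16 libraries, 4 biological replicates in each of 4 sorted groups, was sequenced. Raw counts per gene were deposited by the authors; the submitters' processing notes name STAR 2.5.2a, featureCounts 1.4.6-p3, DESeq2 and mm10, with no settings. Technical replicates, 2 for every sample by the design text, are not apart in the table and may have been pooled. Of counts from 1 to 9, 73.9 to 80.5% per library were even, against 49.2 to 51.3% of counts with 4 or more digits; if both reads of a pair were counted, which the sources used here do not state, low counts and the floor of 3 counts stand for fewer fragments. Kits of 2 kinds are named, not per sample, and strand use in counting is not stated.

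Genes were filtered with filterByExpr (minimum count 10, minimum total 15), scaled by TMM (factors 0.981 to 1.02) and tested with edgeR 4.0.16 (quasi-likelihood, R 4.3.3), 1 term per group over all 16 libraries with 12 residual degrees of freedom. P-values of 13554 genes were adjusted by Benjamini-Hochberg within each of 5 comparisons, with a threshold of 0.05, and changes are log2 with SE. Levels are TMM-normalised CPM. The script was tested on simulated data. It recovered 44.6% of 1.5-fold changes with CD5 in CD4 cells and 47.6% in CD8 cells. For the difference between the CD5 effects it recovered 20% at 1.5-fold and 57.4% at 2-fold. A gene without a call may therefore still differ. Coordinates and exon lengths are from GENCODE vM21 (GRCm38), in which all 185 members matched. Upstream sequences are from RefSeq.

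Same-numbered samples deviated together over all genes, with correlations of 0.251 to 0.534 between the CD4 groups, 0.203 to 0.704 between the CD5lo groups and 0.235 to 0.538 between the CD5hi groups. Between the CD8 groups they ran from -0.0401 to 0.562. There CD8 CD5lo replicate 3 matched CD8 CD5hi replicate 4 best, and both are B-marked libraries. CD8 CD5lo replicate 4 matched CD8 CD5hi replicate 3 best. In the other sets of groups each sample matched its own number best. The pairing between the CD8 groups was therefore left uncertain, and the part of B cell RNA in it was not tested. Between the CD5lo groups, the correlation of 0.704 was that of replicate 3, and both of its libraries are B-marked. The other pairs of these 2 groups ran from 0.203 to 0.532. The part of B cell RNA in that pairing was not tested either.

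Members, classes and lists were chosen with earlier results of these data known. Genes named were all members called with CD5 (of more than 24, the 12 widest each way), the 8 widest lineage differences each way at 5 CPM or more, the 3 highest per kb of each class, and 15 nutrient and other carriers; some genes that meet this rule are not reported here. Others were chosen after their values were seen and are so marked, or are given as gains with the replicate block. Alternatives were DESeq2 1.42.0, upper-quartile scaling, no filter, the replicate block, halved counts, leaving out each library or the 3 B-marked libraries, and members of at least 5 CPM.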

Additional observations from a re-analysis of the deposited data

Results flagged for a closer look

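In 300 groups of 4 libraries of named genes, 16 held a library whose gap to the nearest other exceeded Dixon's 95% critical value relative to the group's range, 5.33%, where chance gives about 1 in 20. In CD8 CD5hi replicate 1, 6 genes stood low: Slc29a3 at 24.3 CPM (others 33.1 to 34.2), Slc39a1 at 25.7 (34.6 to 35.9), Slc39a11 at 21.1 (24.3 to 24.6), Slc41a3 at 3.20 (5.48 to 5.92), Slc6a6 at 128 (162 to 164) and Slc7a5 at 58.4 (93.2 to 96.6). In CD4 CD5hi replicate 1, Slc7a5 stood low at 48.1 CPM (78.4 to 81.9), which goes with the replicate number order described for this gene.

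Single libraries stood high for Slc16a3 in CD4 CD5hi replicate 3, at 5.80 CPM (others 3.22 to 3.39), Slc25a53 in CD8 CD5lo replicate 1, at 10.3 (7.37 to 7.57), Slc9a7 in CD8 CD5lo replicate 3, at 2.74 (1.42 to 1.60), Slc36a1 in CD4 CD5hi replicate 2, at 85.3 (78.2 to 79.0), and Slc39a13 in CD4 CD5lo replicate 4, at 21.1 (17.1 to 17.7). In the B-marked library CD8 CD5hi replicate 4, Slc25a24 stood high at 3.58 CPM (2.89 to 2.97) and Slc39a7 at 165 (138 to 142). Low were Slc18a2 in CD8 CD5lo replicate 4, at 1.20 CPM (1.88 to 2.01), and Slc26a11 in CD8 CD5hi replicate 3, at 42.1 (51.1 to 52.2).

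The change with CD5 differed between the lineages for Slc43a1, by 2.60 on the log2 scale (CD8 minus CD4), and for Slc27a6, by -2.31, both with few counts in CD4 cells.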

How the results depend on the processing

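None of the 175 member calls over the 5 comparisons changed sign in the 22 alternative fits. With the replicate block, whose pairing held for CD4 cells and for the lineage comparisons, 17 members rose and 11 fell with CD5 in CD4 cells, and the lower calls between lineages were 32 and 54. For CD8 cells the pairing was uncertain, since only replicates 1 and 2 correlated best with their own number. The block there gave 32 higher and 28 lower (background 13.4 and 11.6%), and for the difference between lineages 4 and 4 (1.51 and 1.28%). It lost none of the 112 calls of named genes. DESeq2 gave 10 higher calls in CD4 cells (background 3.49%), and 4 higher and 2 lower for the difference (0.989 and 0.672%). Upper-quartile scaling and halved counts each gave 2 higher for the difference. Without the 3 B-marked libraries, 13 members fell in CD8 cells, and the difference gave 2 and 2 (0.626 and 0.324%). With members of at least 5 CPM, 2 rose in CD4 cells, the difference gave 0 and 0, and the organic ion class summed to 258 CPM in CD4 CD5lo and 246 CPM in CD4 CD5hi, from 272 and 260.1. The cause of these shifts was not tested, except that the last setting leaves out members.

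Leaving out 1 library at a time gave 3 to 8 lower calls in CD4 cells, 11 to 19 higher and 5 to 15 lower in CD8 cells, and 0 to 2 each way for the difference. Of the 112 calls, 83 held in all 16 such fits. Upper-quartile scaling lost 3, halving 2, no filter 8 and leaving out the B-marked libraries 8. Genes near 3 counts per library, Slc6a19, Slc43a1 and Slc27a6 in CD4 cells, limit what depth can show.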
